A study of Mus musculus with 40 samples.

Results

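RNA of 4T1 cells grown without T cells on vitronectin was compared with that of 4T1 cells grown without T cells on uncoated tissue culture polystyrene. The 9 libraries compared (4 on vitronectin, from experiments 2 to 5, and 5 on uncoated plastic, from experiments 1 to 5) were taken by substrate and culture from the column names of the deposited table, out of 40 libraries in the series and 22 of 4T1 alone. 4T1 is an established cell line from a mammary tumour that arose in a BALB/c mouse. Cells of both groups were unmodified, were seeded at 10 k cells per cm2 in medium with 10% fetal bovine serum, received interleukin 2 at 30 U/mL after attaching overnight although no T cells were added, and were collected 24 h later; the vitronectin wells had been coated at 250 µg/ml. The 18 co-cultures received T cells from spleens of C57Bl6 mice as well, and 7 of them (3 on vitronectin, 4 on uncoated plastic) are used below as separate wells of the same substrate contrast. Both groups rest on a single established line, and the replicates are separate experiments with that line, so the spread between them is that between cultures and not between animals.

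Vitronectin is a glycoprotein of plasma and of the extracellular matrix. Cells bind it through an RGD motif, chiefly by the integrins αvβ3 and αvβ5, and it also binds the urokinase receptor (Plaur), which ties it to the plasminogen system as well as to adhesion. Integrins αvβ6 and αvβ8 bind RGD in the latency peptide of TGF-beta, and integrin α5β1 is the main receptor of fibronectin, the other RGD ligand among the 4 coats of the study. Vtn itself has no line in the table and is not analysed here.

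Values are the deposited signals, which are reads per M (mega-reads) of a scaled library and are called per M below. The 9 libraries hold 20.5 to 39.6 M assigned reads. In them 1 read is worth 0.0259 to 0.0480 per M, and a count of 0 allows 0.0777 to 0.144 per M (3 reads, counting error only). Epithelial markers of the carcinoma cells were detected: 20 of the 22 listed were tested and none passed between the groups by limma or by edgeR. At an unadjusted p under 0.05, 1 of them was lower, beside 628 of 13776 genes tested. Of 16 T cell markers, 2 (Trac and Lck) averaged 1 per M or more in either group, and the summed level was 3.34 to 4.05 per M on vitronectin and 2.67 to 4.64 per M on uncoated plastic. In bulk RNA, a larger share of cells that express a gene and more RNA of it per cell cannot be told apart.

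Few genes differed. Of 13776 genes tested with limma, 7 passed an adjusted p of 0.05, which is 0.0508% of them. Of these, 6 (0.0436% of the genes tested) were higher on vitronectin: Selp, Adgrg3, Adgrg1, Wnt11, Smad6 and Ecm1. The 1 that was lower (0.00726%) was Plin2. An unadjusted p under 0.05 was reached by 1250 genes, 9.07% of those tested, 622 of them higher and 628 lower. Each of the 7 moved in 1 direction in 4 of 4 experiments; 7.05% of all genes were higher in all 4 and 7.98% lower in all 4. Log2 differences are those of log2(value + 1), and on this scale most were small. The median size of a log2 difference was 0.0518, under the median standard error of 0.0625. For 97.8% of genes the 95% interval of the difference lay within 0.5 of 0. Adding 1 shrinks the differences of genes at a few per M, so their sizes are understated. The calls depend on the experiment being a block in the fit: without it 0 genes passed by limma (318 at an unadjusted p under 0.05) and 0 by edgeR (294). With the block, leaving out 1 library left 0 genes passing in 3 of the 9 cases (uncoated replicate 2, uncoated replicate 5 and vitronectin replicate 4) and between 2 and 26 in the others, and leaving out experiment 3 or experiment 5 altogether left 0.

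The promoters below are shown because they belong to genes that rose together on vitronectin. All 7 genes matched the RefSeq promoter table (GRCm38.p6, 250 bases before to 50 after a start), with 9 starts in all. The 9 include that of Plin2, the gene that fell, and 2 starts each of Adgrg1 and Wnt11. Of these 9 promoters, 6 hold a searched motif, and 5 of the 6 are printed 5′ to 3′ in the direction of transcription. Capitals mark AP-1 letters (TGANTCA), the SMAD box (GTCTAGAC) and the GC-rich SMAD letters (GGCGCC), searched on both strands; none of these marked stretches overlap.
Selp, chr1:164115014-164115313, plus strand: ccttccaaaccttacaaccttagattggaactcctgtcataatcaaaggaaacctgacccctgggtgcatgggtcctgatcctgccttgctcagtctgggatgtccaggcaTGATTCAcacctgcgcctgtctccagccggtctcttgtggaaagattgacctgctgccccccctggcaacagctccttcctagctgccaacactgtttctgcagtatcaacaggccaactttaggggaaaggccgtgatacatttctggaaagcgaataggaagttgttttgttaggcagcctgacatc
Adgrg1, second start, chr8:94984149-94984448, plus strand: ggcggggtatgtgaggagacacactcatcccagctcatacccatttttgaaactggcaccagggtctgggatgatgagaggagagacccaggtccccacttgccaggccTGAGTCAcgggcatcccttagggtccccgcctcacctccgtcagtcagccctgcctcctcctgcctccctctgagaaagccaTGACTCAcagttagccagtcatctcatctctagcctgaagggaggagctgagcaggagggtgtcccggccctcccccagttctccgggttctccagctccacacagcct
Adgrg3, chr8:95017442-95017741, plus strand: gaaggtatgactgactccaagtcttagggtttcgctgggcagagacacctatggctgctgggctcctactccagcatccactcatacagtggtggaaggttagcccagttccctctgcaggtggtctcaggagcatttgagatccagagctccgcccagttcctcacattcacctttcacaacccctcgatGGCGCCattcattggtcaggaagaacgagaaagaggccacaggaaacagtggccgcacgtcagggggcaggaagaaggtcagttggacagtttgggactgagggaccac
Smad6, chr9:64022010-64022309, minus strand: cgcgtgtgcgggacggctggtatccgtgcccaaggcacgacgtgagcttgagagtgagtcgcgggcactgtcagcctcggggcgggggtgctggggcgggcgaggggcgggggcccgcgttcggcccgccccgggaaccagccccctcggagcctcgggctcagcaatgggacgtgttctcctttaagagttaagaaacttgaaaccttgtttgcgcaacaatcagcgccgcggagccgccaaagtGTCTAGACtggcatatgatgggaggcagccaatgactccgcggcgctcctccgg
Ecm1, chr3:95739520-95739819, minus strand: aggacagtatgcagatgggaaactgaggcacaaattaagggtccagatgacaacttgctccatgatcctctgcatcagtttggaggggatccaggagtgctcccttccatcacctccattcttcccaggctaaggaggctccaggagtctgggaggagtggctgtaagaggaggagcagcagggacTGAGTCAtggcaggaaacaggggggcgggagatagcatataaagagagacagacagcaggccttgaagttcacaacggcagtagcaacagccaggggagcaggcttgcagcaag
AP-1 letters stood in 3 of the 9 promoters (Selp once, the second start of Adgrg1 at 2 places, Ecm1 once), against 7.8% of all 32851 promoters in the table and 5.2% of the 11614 that belong to tested genes. The search left the middle letter free: the Selp match has T there (TGATTCA), and those of Adgrg1 and Ecm1 have G or C. The SMAD box stood in 1 of the 9, that of Smad6, where it spans the start itself, against 0.2% of all promoters. The GC-rich SMAD letters stood in 2 of the 9 (Adgrg3, and the first start of Wnt11, not printed), against 11.9% of all promoters and 21.4% of those of tested genes. TEAD letters (GGAATG) stood in 0 of the 9 and in 14.7% of all. These matches describe letters in a window and not binding.

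**Figure D1:**
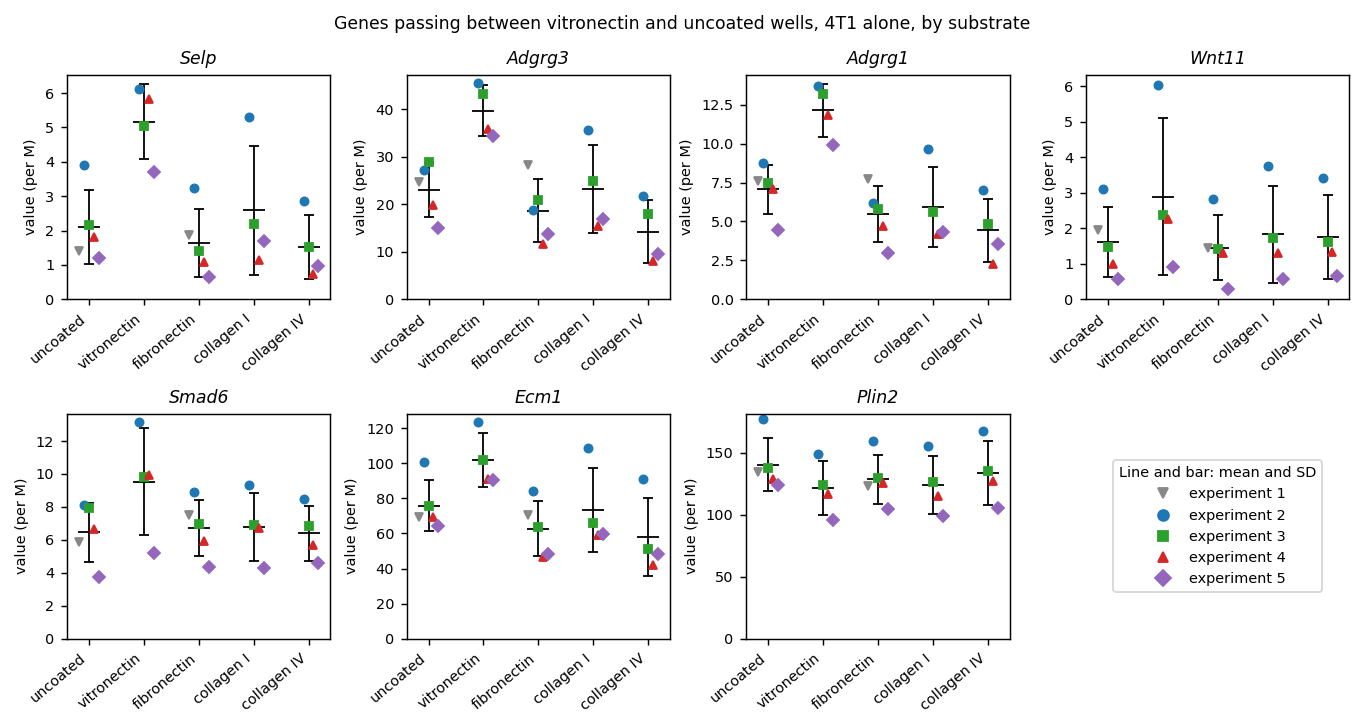
Values per M (y axis, from 0) of the 7 genes that passed between vitronectin and uncoated wells, in each library of 4T1 alone on the 5 substrates (x axis); symbols are experiments 1 to 5, the line and bar are the mean and SD. The vitronectin mean is the highest of the 5 for the 6 genes that were higher, and for Plin2 it is the lowest.

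The largest rise was that of Selp, which encodes P-selectin, an adhesion receptor for leukocyte ligands that is stored in endothelial cells and platelets. Selp (chromosome 1, 164115264 to 164150026) stood at 6.12, 5.04, 5.83 and 3.69 per M on vitronectin in experiments 2 to 5, and at 1.39, 3.91, 2.16, 1.82 and 1.20 per M on uncoated plastic in experiments 1 to 5. The groups overlapped by 1 pair of values, vitronectin replicate 5 lying below uncoated replicate 2, but within each experiment vitronectin was higher (by 0.54 to 1.28, log2). The mean was 5.17 ± 1.09 per M (SD, n = 4) against 2.10 ± 1.08 (SD, n = 5), a ratio of 2.47, and the fitted difference was 1.02 ± 0.15 (log2, SE; limma adjusted p = 0.0117). Its neighbours did not pass against uncoated plastic. Sele, which encodes the related E-selectin and lies 56777 bases away, differed by 0.24 ± 0.13 (adjusted p = 0.588), and the 9 tested genes within 200 kb ranged from -0.11 to 0.24. Against the mean of the other 3 coats Sele did pass (0.55), as did Selp. In the co-cultures Sele differed from uncoated plastic by 0.57 and did not pass. The lncRNA Gm16548 (164148576 to 164152217) overlaps the end of Selp, and the library kit does not mark strand, so that reads of the shared stretch cannot be told apart.

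Markers of the cells best known for Selp were checked beside it. Of 9 platelet and erythroid markers in the table, Selp was the one that averaged 1 per M or more in either group, and Pf4, Hbb-bs and Hbb-bt were at 0 in all 9 libraries. Of 7 endothelial markers, Flt1, Sele and Selp reached 1 per M, and the summed level of the 7 was 52.7 to 57.9 per M on vitronectin and 47.0 to 52.9 per M on uncoated plastic, most of it Flt1 (the VEGF receptor 1) at a mean of 48.5 and 45.9 per M. Pecam1 and Cdh5, which define endothelium, were below 1 per M.

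Adgrg3 and Adgrg1 encode adhesion G protein-coupled receptors of 1 subfamily, and lie next to each other in the same direction. Adgrg3 (GPR97), best known from granulocytes, stood at 45.4, 43.3, 35.8 and 34.5 per M on vitronectin and at 24.6, 27.3, 28.8, 19.8 and 15.0 per M on uncoated plastic. Adgrg1 (GPR56), a receptor for collagen III and transglutaminase 2 among other matrix ligands, stood at 13.7, 13.2, 11.8 and 9.90 per M on vitronectin and at 7.58, 8.73, 7.46, 7.07 and 4.46 per M on uncoated plastic. For both receptors every vitronectin library lay above every uncoated one; 0.319% of all genes tested showed such a separation upwards. The difference was 0.88 ± 0.13 for Adgrg3 (adjusted p = 0.0117) and 0.80 ± 0.14 for Adgrg1 (adjusted p = 0.027), and both means were 1.72 times the uncoated ones.

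Of the tested genes around this locus, the 2 receptors alone passed. Adgrg1 (chromosome 8, 94974756 to 95014208) ends 2905 bases before Adgrg3 (95017113 to 95045250) in RefSeq, and the lncRNA Gm51544 (95011808 to 95020247) overlaps both, so that reads of the shared stretches cannot be told apart. Adgrg5, the third member of the cluster, was at 0.216 and 0.172 per M and was not tested. Of the 8 tested genes within 200 kb of Adgrg3, 1 passed, which is Adgrg1, and of the 9 within 200 kb of Adgrg1, 1 passed, which is Adgrg3. On the other side of the locus, Kifc3 differed by -0.02 ± 0.06. These neighbours were looked up after the calls were seen. Of 8 granulocyte markers in the table, Adgrg3 was the one at 1 per M or more, and Mpo and Elane were at 0 in all 9 libraries.

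**Figure D2:**
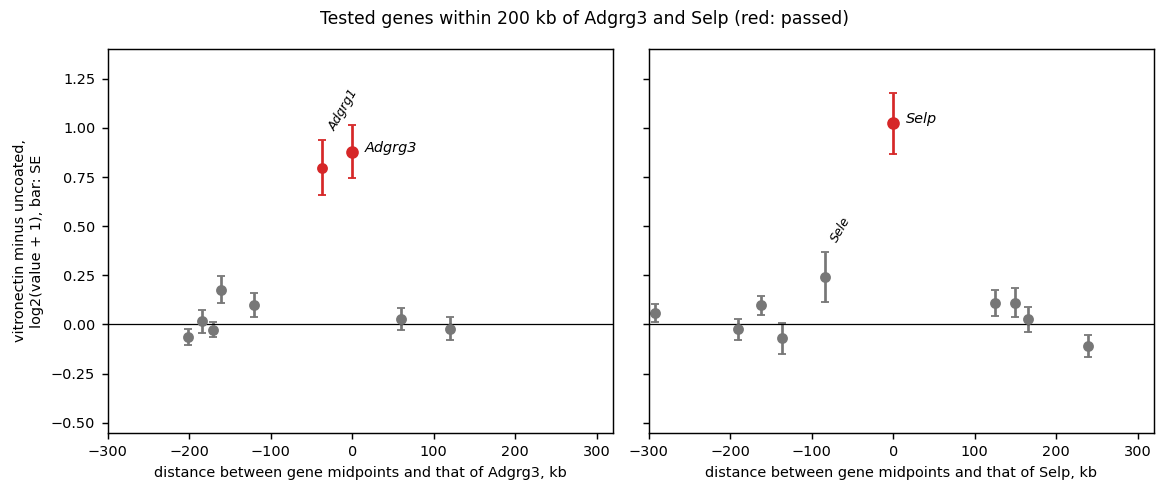
Log2 difference between vitronectin and uncoated wells (y axis, bars are SE) of the tested genes within 200 kb of Adgrg3 (left) and Selp (right), by the distance between gene midpoints in kb (x axis); red points passed, and names are given for these and for Sele. Adgrg1 and Adgrg3 stand at 0.80 and 0.88 among neighbours of at most 0.18, and Selp stands at 1.02 among neighbours of at most 0.24.

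Smad6 was the 1 gene of the TGF-beta and BMP response that passed. Smad6 (chromosome 9, 63953076 to 64022085), an inhibitory SMAD that blocks BMP receptors and is itself a target of BMP signalling, stood at 13.2, 9.83, 9.91 and 5.22 per M on vitronectin and at 5.85, 8.11, 7.93, 6.64 and 3.74 per M on uncoated plastic. The groups overlapped through replicate 5 of vitronectin, and the difference within experiments was 0.28 to 0.64 (fit: 0.49 ± 0.08, adjusted p = 0.0197). Of 18 tested members of the TGF-beta response list, 15 had a positive difference, beside 6605 of 13776 genes overall. Of the 18, 8 were higher at an unadjusted p under 0.05, beside 622 of 13776. The list's median difference was 0.08 and that of all genes -0.0035.

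The other 7 of those 8 were Id1, Id2, Id3, Smad7, Ltbp1, Ltbp2 and Ltbp3. Id1, Id2 and Id3 encode inhibitors of helix-loop-helix factors and are standard targets of BMP signalling, and they differed by 0.47 ± 0.15, 0.52 ± 0.14 and 0.25 ± 0.06, with adjusted p of 0.316, 0.23 and 0.209, so none passed. Id3 stood at 184, 161, 147 and 125 per M on vitronectin and at 135, 156, 159, 126 and 95.7 per M on uncoated plastic, with 4 of 4 experiments higher. Smad7, the second inhibitory SMAD, differed by 0.21 ± 0.06 (adjusted p = 0.244). The genes of the family named latent TGF-beta binding proteins differed by 0.12 ± 0.05 (Ltbp1), 0.23 ± 0.06 (Ltbp2) and 0.18 ± 0.06 (Ltbp3). Of the ligands, Tgfb1, Tgfb2 and Tgfb3 were at 0.04, -0.13 and 0.02, and of the receptors, Tgfbr1, Tgfbr2 and Tgfbr3 were at 0.05, -0.07 and 0.07. Against fibronectin, 6 of the 18 members were higher on vitronectin (Smad6, Smad7, Id2, Id3, Ltbp2 and Ltbp3), where 2.42% of all genes tested were, and 1 was lower (Tgfb2, -0.35), where 1.58% were.

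Wnt11 and Ecm1 encode secreted proteins. Wnt11 (chromosome 7, 98835084 to 98854747), a ligand of the β-catenin-independent Wnt branch, was low: 6.04, 2.38, 2.25 and 0.904 per M on vitronectin and 1.94, 3.11, 1.46, 0.987 and 0.575 per M on uncoated plastic. Its groups overlapped widely, experiment 2 being the highest and experiment 5 the lowest on both substrates. The differences within experiments were 0.27 to 0.78, and the fitted one 0.53 ± 0.09 (adjusted p = 0.0207); edgeR, which adds no 1 to the value, gave 0.87. Ecm1 (extracellular matrix protein 1; chromosome 3, 95734147 to 95739876) stood at 124, 102, 91.2 and 90.3 per M on vitronectin and at 69.3, 101, 75.5, 69.1 and 64.4 per M on uncoated plastic. Uncoated replicate 2 alone reached into the range of the vitronectin libraries, and the difference was 0.44 ± 0.08 (adjusted p = 0.0447). None of the 9 tested members of the Wnt and Notch target list passed by limma or by edgeR. At an unadjusted p under 0.05, 2 were lower, beside 628 of 13776 genes overall.

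The 1 gene that fell was Plin2, which encodes the lipid droplet coat protein perilipin 2 (chromosome 4, 86626910 to 86670217); the transcribed pseudogene Gm12551 overlaps its end. It stood at 149, 124, 117 and 96.0 per M on vitronectin and at 134, 177, 138, 129 and 124 per M on uncoated plastic. The groups overlapped, the fall within experiments was small in each (-0.37 to -0.14), and the fitted difference was -0.22 ± 0.04 (adjusted p = 0.0197). Pnpla2, the lipase that starts the breakdown of stored triglyceride, did not pass (-0.22 ± 0.06, adjusted p = 0.192), though all 4 vitronectin values (47.7, 44.4, 47.0 and 39.2 per M) lay below all 5 uncoated values (51.0, 54.0, 51.1, 48.7 and 51.9 per M); 0.443% of genes tested were separated downwards. None of 14 tested genes of fatty acid synthesis and none of 23 of cholesterol synthesis passed by limma or edgeR, with none in either list at an unadjusted p under 0.05.

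The genes with the next smallest p did not pass. Among those higher in 4 of 4 experiments, the smallest p belonged to Atp2c2, a secretory pathway calcium pump: 8.36, 8.60, 7.09 and 8.68 per M on vitronectin and 5.79, 4.43, 5.31, 5.13 and 5.28 per M on uncoated plastic, groups that did not overlap (0.63 ± 0.12, limma adjusted p = 0.0608; edgeR adjusted p = 0.0344). It was followed by Myh14, a non-muscle myosin heavy chain (0.42), Mcrip1 (0.25), the mitochondrial pyruvate carrier Mpc2 (0.26), Phlda3, a p53 target that restrains AKT (0.36), and Tinagl1, a secreted matricellular protein (0.24), each with an adjusted p of 0.114. Among those lower in 4 of 4 experiments were Mfap3l (-0.47, adjusted p = 0.0608), Larp1b, Serpinb6b, Fhod3, which encodes a formin, the cathepsin Ctsw, Tut1, the kinase Plk2, the vitamin transporter Slc5a6, Moxd1 and the repressor Bcl6, from -0.43 to -0.16 with adjusted p of 0.114 to 0.192.

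**Figure D3:**
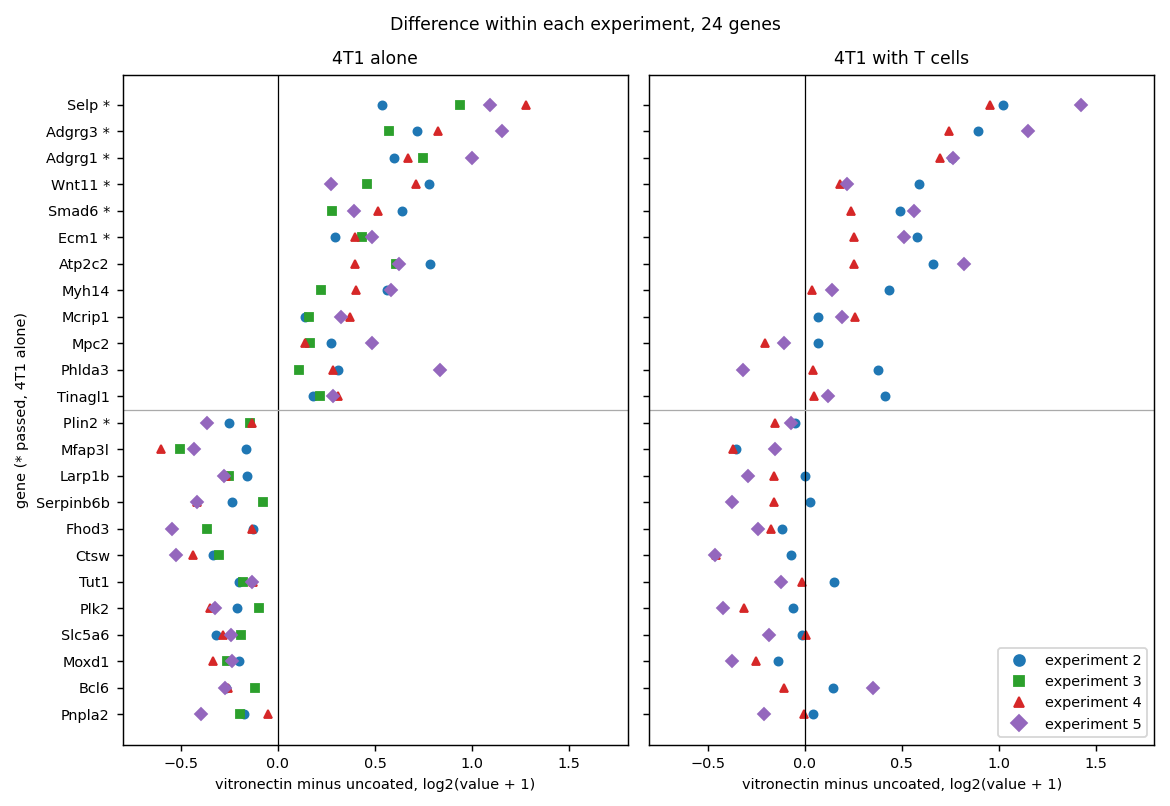
Difference between vitronectin and uncoated wells of the same experiment on the log2(value + 1) scale (x axis) for 24 genes (y axis; an asterisk marks the 7 that passed), in 4T1 alone (left, experiments 2 to 5) and with T cells (right, experiments 2, 4 and 5). Points of Selp, Adgrg3, Adgrg1, Wnt11, Smad6 and Ecm1 lie right of 0 in every experiment of both panels, while those of 8 of the 24 genes (Mpc2, Phlda3, Larp1b, Serpinb6b, Tut1, Slc5a6, Bcl6 and Pnpla2) lie on both sides of 0 with T cells.

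None of the receptor subunits of vitronectin passed. Of 6 tested RGD-binding integrin subunits none passed by limma or edgeR, and their median difference was 0.0072. Itgb1 alone was higher at an unadjusted p under 0.05, beside 622 of 13776 genes overall. Itgav, the shared αv subunit, was at 202, 202, 179 and 168 per M on vitronectin and at 214, 192, 174, 184 and 172 per M on uncoated plastic, and its difference of 0.03 had a 95% interval of -0.08 to 0.14. Itgb5 had an interval of -0.10 to 0.07, Itgb6 one of -0.24 to 0.13, Itgb1 one of 0.00257 to 0.17 and Itga5 one of -0.12 to 0.05, and each interval lies within 0.5 of 0. Itgb3, which completes αvβ3, stood at 11.8, 7.50, 8.69 and 7.23 per M on vitronectin and at 6.33, 11.3, 5.84, 6.24 and 5.95 per M on uncoated plastic. It was higher in 4 of 4 experiments but overlapped through uncoated replicate 2, and its difference of 0.22 (95% interval -0.02 to 0.47, adjusted p = 0.578) did not pass. Itgb8 averaged 0.464 and 0.641 per M and was not tested.

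The plasminogen system likewise held no gene that passed. None of 10 tested members passed by limma or edgeR, and the list's median was 0.11. Higher at an unadjusted p under 0.05 were 3 (Plaur, Plgrkt and Anxa2), beside 622 of 13776 genes overall. Plau, urokinase, stood at 193, 160, 166 and 177 per M on vitronectin and 143, 207, 157, 143 and 141 per M on uncoated plastic (0.12 ± 0.07, adjusted p = 0.629). Plaur, its receptor, differed by 0.11 ± 0.05 (adjusted p = 0.481).

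**Figure D4:**
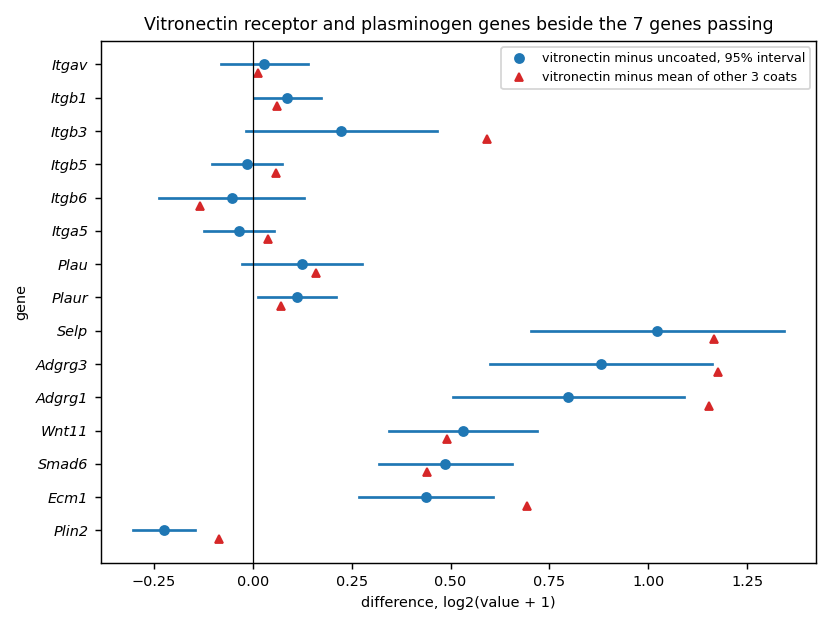
Log2 difference between vitronectin and uncoated wells with its 95% interval (blue, x axis) and the difference between vitronectin and the mean of the other 3 coats (red triangles, no interval drawn) for 8 receptor and plasminogen genes and the 7 genes that passed (y axis). Their 8 blue points lie between -0.05 and 0.22, and the intervals of the 7 genes passing lie away from 0.

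Other gene groups held no gene that passed against uncoated plastic. Of 33 lists with a tested member, 4 had a call, and these calls were Smad6, Adgrg3 and Selp (which 2 lists of other cell types share). None of 28 focal adhesion and actin genes passed by limma, and 21 of the 28 had a negative difference. At an unadjusted p under 0.05, 3 were lower, among them Fermt1, kindlin 1 (-0.15 ± 0.05), and Actn1 (-0.13 ± 0.05). Over all 13776 genes tested, 622 were higher and 628 lower at that level, and 7171 had a negative difference. Of 9 collagen- and laminin-binding integrins and receptors, Itga6 and Itgb4, the 2 subunits of the hemidesmosome integrin, were higher at an unadjusted p under 0.05 (0.18 ± 0.07 and 0.19 ± 0.07; adjusted p = 0.435 each). Among 20 immediate early genes 4 were higher at that level, with Junb at 0.28 ± 0.08 (adjusted p = 0.308) and Ier2 at 0.28 ± 0.11. Timp2, an inhibitor of matrix metalloproteinases, differed by 0.15 ± 0.04 (adjusted p = 0.211), and of 28 cell cycle genes 1 was lower at an unadjusted p under 0.05. None of these groups held a gene called by edgeR either.

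Against other coated wells the same 4 vitronectin libraries differed more. Vitronectin against fibronectin gave 551 genes, 4% of those tested (333 higher, 2.42%, and 218 lower, 1.58%), and vitronectin against the mean of fibronectin, collagen I and collagen IV gave 757, 5.5% (414 higher, 3.01%, and 343 lower, 2.49%). Fibronectin, collagen I and collagen IV against uncoated plastic gave 258, 499 and 294 (1.87%, 3.62% and 2.13%). These comparisons share the vitronectin or the uncoated libraries, so their values are given side by side only. The count against fibronectin was 45 without experiment 4, 555 without experiment 2 and 1 without the block.

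The 6 genes that rose against uncoated plastic were highest on vitronectin among the 5 substrates. Selp averaged 2.59 per M on collagen I, 1.65 per M on fibronectin and 1.5 per M on collagen IV. Its difference from fibronectin was 1.26 ± 0.15 (adjusted p = 0.000141). On collagen I, fibronectin and collagen IV in that order, Adgrg3 averaged 23.2, 18.7 and 14.3 per M and Adgrg1 5.93, 5.47 and 4.43 per M. All 6 also passed against fibronectin and against the 3 other coats together. These comparisons reuse the 4 vitronectin libraries by which the 6 were chosen, so they are not separate evidence. The 6 named rises that did not pass were likewise highest on vitronectin, 6 of 6, but were also chosen by these libraries. Of the 12 named falls, 9 were lowest on vitronectin and 5 were highest on uncoated plastic. On collagen IV, Adgrg3 (-0.63, adjusted p = 0.0146), Adgrg1 (-0.55, adjusted p = 0.0427) and Ecm1 (-0.41, adjusted p = 0.00811) were below uncoated plastic, and Ecm1 was also below it on fibronectin (-0.29, adjusted p = 0.0499). Plin2 did not pass against the other coats (-0.09 against their mean, adjusted p = 0.101) and was lower on collagen I than on uncoated plastic (-0.20, adjusted p = 0.00377).

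Other genes passed between vitronectin and the other coats and did not pass between vitronectin and uncoated plastic. Itgb3 was higher on vitronectin than on the mean of the other coats (0.59, adjusted p = 0.00102), with means of 8.81 per M on vitronectin, 7.14 per M on uncoated plastic, 6.64 per M on fibronectin, 5.26 per M on collagen IV and 4.98 per M on collagen I. The laminin chain genes Lama3 and Lamb3 were higher on vitronectin than on fibronectin (0.58 and 0.43; adjusted p = 0.00113 and 0.000516) and at 0.07 and 0.10 against uncoated plastic. Serpine2, an inhibitor of urokinase and thrombin, differed by 0.58 from fibronectin (adjusted p = 0.00409) and by 0.06 from uncoated plastic, and the stromelysins Mmp3 and Mmp10 by 0.84 and 0.62 from fibronectin (adjusted p = 0.0355 and 0.0345) and by 0.05 and 0.08 from uncoated plastic. Of 23 interferon response genes, 8 were lower on vitronectin than on the other coats together (among them Cxcl10, a T cell chemokine, -0.36, Ifit1 -0.51 and Irgm1 -0.25) and 3 than on fibronectin, beside 2.49% and 1.58% of all genes tested. None passed against uncoated plastic by limma or edgeR, where 19 of the 23 differences were negative (7171 of 13776 over all genes) and 1 (Igtp) had an unadjusted p under 0.05.

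**Figure D5:**
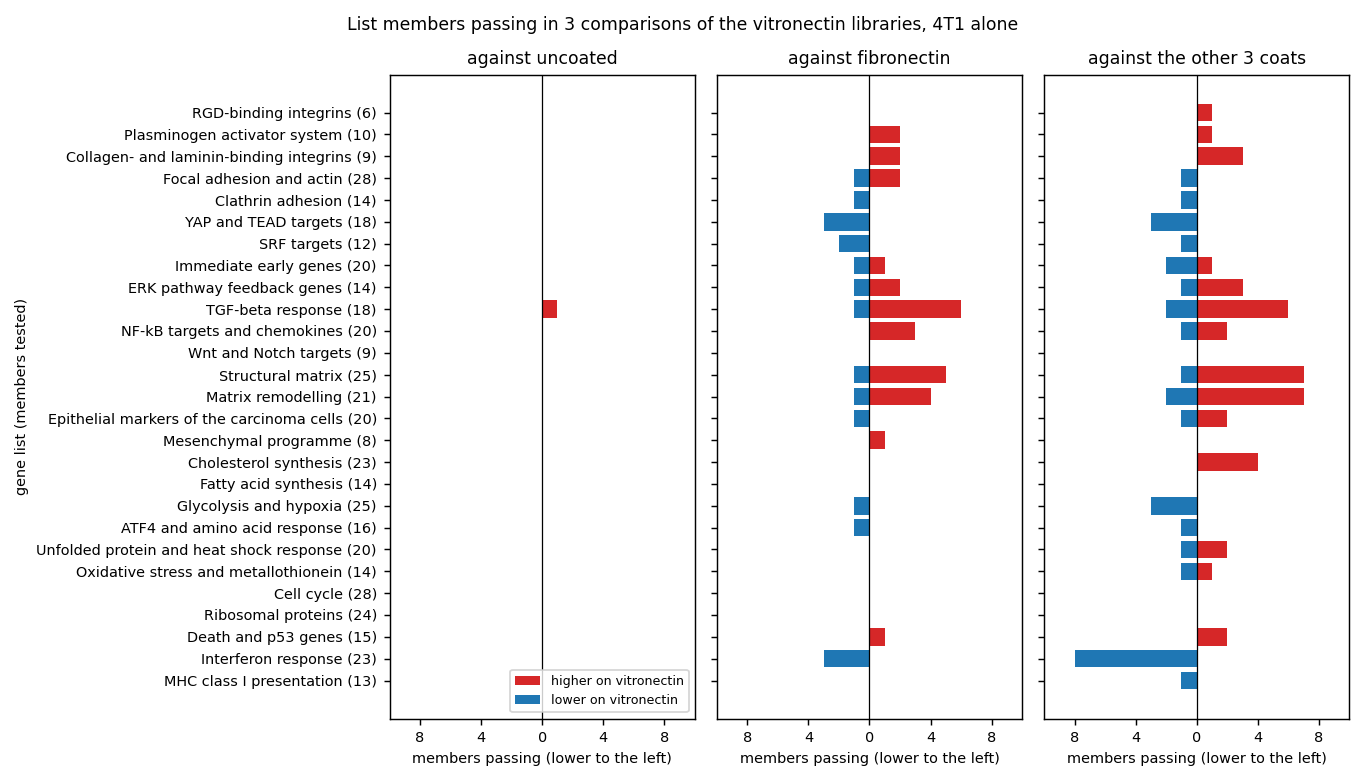
Number of list members that passed (x axis, higher on vitronectin to the right in red, lower to the left in blue) for 27 gene lists with at least 6 tested members (y axis, members tested in parentheses), in 3 comparisons that use the same 4 vitronectin libraries. Against uncoated plastic 1 bar is present, for Smad6, and against the other 3 coats the longest are 8 interferon response genes lower and 7 genes each of structural matrix and matrix remodelling higher.

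With T cells added, Selp and Adgrg3 were again higher on vitronectin. Among 13776 genes, these 2 passed in the co-cultures by limma (0.0145% of those tested, with 734 or 5.33% at an unadjusted p under 0.05) and 0 by edgeR (747). Selp stood at 7.55, 6.57 and 5.34 per M on vitronectin (experiments 2, 4 and 5) and at 1.90, 3.21, 2.90 and 1.36 per M on uncoated plastic (experiments 1, 2, 4 and 5). In the same order, Adgrg3 stood at 52.4, 33.3 and 35.5 per M on vitronectin and at 23.8, 27.8, 19.5 and 15.5 per M on uncoated plastic. The differences were 1.16 ± 0.20 and 1.01 ± 0.18 (adjusted p = 0.0243 each). Without 1 library the count ranged from 0 to 3. It was 0 without uncoated co-culture replicate 1, 2 or 5 or vitronectin co-culture replicate 4 or 5, and 0 without the block. Adgrg1, Smad6, Ecm1 and Wnt11 were higher in 3 of 3 experiments with differences of 0.81, 0.45, 0.46 and 0.30 (adjusted p = 0.267, 0.258, 0.303 and 0.908); 18% of all genes were higher in all 3.

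The vitronectin difference itself was not shown to change with T cells. The interaction gave 0 genes by limma (0%, with 478 or 3.47% at an unadjusted p under 0.05) and 0 by edgeR (432), with 0.13 for Selp and for Adgrg3, 0.01 for Adgrg1 and -0.04 for Smad6. Mpc2, at 0.26 alone and -0.08 with T cells, and Bcl6, at -0.22 and 0.14, had unadjusted p of 0.000619 and 0.00486 for this interaction and did not pass. The co-culture libraries also hold RNA of spleen cells: the 16 T cell markers summed to 16.7 to 899 per M on vitronectin and 15.9 to 787 per M on uncoated plastic, and the platelet and erythroid list, Selp included, to 7.06 to 21.1 and 3.02 to 23.4 per M. Their part in the co-culture values of Selp was not tested.

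A count test also called repeat-rich gene models. edgeR called 18 genes between vitronectin and uncoated plastic: the 7 above, Atp2c2, and 10 gene models of which 7 lie on chromosome 9 (3000282 to 3038313), 2 on chromosome 2 (98662237 to 98667301) and 1 on chromosome 14 (19415857 to 19418930; GENCODE vM21, GRCm38). Gene models of this kind can share reads with near-identical copies, so their values are uncertain. Their summed level was 0.0589 to 1.32 per M in the 17 libraries of 4T1 alone of experiments 1 to 4 and 59.9 to 399 per M in the 5 of experiment 5, with the lowest of these 5 on vitronectin and the highest on uncoated plastic. Gm10800, for example, was at 33.2 per M in vitronectin replicate 5 and 229 per M in uncoated replicate 5. Without experiment 5 edgeR called 0 genes (581 at an unadjusted p under 0.05), and without the 10 models it called the same 7 genes as limma.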

How the data were processed

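RNA was measured as poly(A)-selected libraries of single 75-base reads. STAR 2.6, featureCounts, edgeR 3.31.7 and mm10 are named in the submitters' processing notes, and the annotation is not given in the sources used here. The deposited values are a signal per gene, which the values show to be reads over a scaled library total; whole reads were recovered for 100% of values (within 0.01). From the 21347 genes kept (1 repeated line and 1 line with a cell that is no number were dropped), genes at 1 or more per M in at least 3 of the 22 libraries of 4T1 alone were tested with limma 3.58.1 (R 4.3.3) on the scale log2(value + 1) (trend, Benjamini-Hochberg over 13776 genes, threshold 0.05), with substrate and experiment as terms over the 22 libraries (13 residual degrees of freedom); co-cultures used all 40 libraries with experiment within culture as block (22 residual degrees of freedom). The labels' replicate number marks the experiment, and residuals of same-numbered vitronectin and uncoated libraries correlated at 0.199 to 0.747. No libraries were copies (chi-square per degree of freedom 7.44 to 67.5). The library tag in the labels, of unstated meaning, differed between vitronectin and uncoated wells of the same experiment in experiment 2 of 4T1 alone and in experiments 4 and 5 of the co-cultures. edgeR 4.0.16 and DESeq2 1.42.0 on recovered reads were alternatives; the limma and edgeR fits were tested on simulated data. Named were 12 rises and 12 falls (passing by size, then by smallest p with 4 of 4 experiments in 1 direction and a mean of 5 or more), the vitronectin pathway genes, Selp and Adgrg3, and of each of 34 lists the members passing and those with the smallest p. Some genes of the rule are not reported here. The members and lists were chosen with earlier results of these data known.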

Additional observations from a re-analysis of the deposited data

Results flagged for a closer look

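Among 34 genes looked at in the 2 groups (the 24 of the naming rule and 10 of the vitronectin pathway), 5 of 68 sets of values (7.35%) had 1 library set apart from the rest by a gap that is large for the group's range. In independent sets chance alone gives about 1 in 20. These sets share the same 9 libraries, and 24 of the genes were chosen by their values in them, so the 2 shares are not comparable. In uncoated replicate 2, Plin2 stood at 177 per M (next highest 138), Fhod3 at 13.6 per M (next highest 10.7), Itgb3 at 11.3 per M (next highest 6.33) and Plau at 207 per M (next highest 157). In vitronectin replicate 2, Itgb6 stood at 9.54 per M (next highest 5.79). All 5 come from experiment 2, the pair with differing library tags, and each was the highest of its group.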

How the results depend on the processing

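The 7 calls kept their direction under every alternative run (188 values), but fell short of the threshold in 99 of them. These were 8 of 27 for Selp, 9 of 27 for Adgrg3, 15 of 27 each for Plin2 and Smad6, 15 of 26 for Wnt11, 17 of 27 for Adgrg1 and 20 of 27 for Ecm1. The 26 other tested genes of the naming rule and the vitronectin pathway, none of which passed in the main fit, gave 702 values. Of these, 22 changed sign and 21 passed the threshold. Against uncoated plastic (7 calls), the counts were 0 without replicate block by limma or edgeR, also with all 40 libraries, and 0 without experiment 3 or 5 (edgeR without 5: 0). They were 3 with all 40 libraries and the block, 4 without experiment 2 (the pair with differing tags) or 4, 18 with edgeR, 32 with DESeq2, and 0 to 26 when 1 library was left out. Against fibronectin (551), the counts were 1 without replicate block (edgeR 0), 60 with the libraries of the 2 groups only, 29 and, without block, 0 with all 40, 309 without a filter, 461, 555, 285, 45 and 78 without experiment 1, 2, 3, 4 and 5, and 130 to 824 without 1 library (lowest without vitronectin replicate 4). Against the 3 other coats (757), they were 19 without replicate block (edgeR 19), 127 and, without block, 7 with all 40, 787, 822, 400, 193 and 152 without experiment 1, 2, 3, 4 and 5, and 262 to 981 without 1 library (lowest without vitronectin replicate 5). With T cells (2), they were 0 without replicate block, by edgeR or with a pseudocount of 0.25, 1 after quantile normalisation, 4 in the 7 libraries alone and 0 to 3 without 1 library; the interaction gave 0 throughout, including 0 without 1 library. The fits of edgeR without experiment 5 or the repeat-rich models, of the 7 co-cultures alone and of a filter over 40 libraries were chosen after seeing the data. Depth limits genes near 1 per M, since 1 read is worth 0.0259 to 0.0480 per M. The causes of these changes were not tested.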
